A study of Mus musculus with 93 samples.

Results

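129S1/SvImJ and C57BL/6J are classical laboratory inbred strains, and mice within each strain are close to genetically identical. Here their livers were compared on the control diet, without the challenge of the Western diet. The comparison used the 15 control-diet mice of these strains among the 93 mice of the series, 7 of 129S1/SvImJ and 8 of C57BL/6J, chosen by their labels for strain and diet alone. All 19110 genes that passed a filter on low counts, of 53465 genes counted, were tested.

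All the mice were male and carried no engineered allele. They were kept at 30°C, which is thermoneutral for mice, from 6 wk of age. From 7 wk they were fed the control diet (CD), with 10% of its energy from fat, 17% from protein and 73% from carbohydrate, for 17 wk, fasted for a few hours in the light phase and killed at 24 wk. A second set of mice of the same strains was fed a Western diet (WD) with 40% of its energy from fat. It held 6 mice of 129S1/SvImJ and 8 of C57BL/6J, and is used below to see whether a strain difference recurred in other animals or changed with diet. RNA was taken from crushed whole liver, so hepatocytes, which make up most of the tissue and secrete most plasma proteins, were measured together with macrophages, lymphocytes, endothelial cells, stellate cells and bile duct cells.

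Each mouse gave between 40020424 and 49648938 reads on genes. Values are CPM, each gene's share of the reads on genes with the library size corrected by TMM factors for composition. CPM are not divided by gene length, so they compare mice and not genes. A log2 fold change is that of 129S1/SvImJ over C57BL/6J, is given with its standard error, and comes from one limma-voom fit of all mice. Adjusted p-values are over the 19110 genes, and a gene is called higher or lower where the adjusted p is below 0.05. Strain differed together with cohort and with the mapping of reads. First, no cohort label held CD mice of both strains: the 129S1/SvImJ mice came from cohorts 3 (3 mice) and 5 (4 mice), and the C57BL/6J mice from cohorts 1 (3 mice) and 2 (5 mice), so the strains could not be compared within a cohort. Other strains had mice in several of these cohorts, and a fit of all mice with cohort as an added term uses them as links; it takes the shift of a cohort to be the same in every strain. Its value is given where it ended a call or moved a count by over 1.5 times. Second, reads were aligned to the C57BL/6J genome, and 3.34% to 5.33% of reads did not map in 129S1/SvImJ against 1.66% to 2.60% in C57BL/6J (means 4.55% ± 0.66 SD, n = 7, and 2.23% ± 0.33 SD, n = 8, exact permutation test, two-sided, p = 0.00031, the smallest this design allows, and 0.0011 adjusted over 7 measures). The part of sequence differences in the counts of single genes was not tested. The WD mice of each strain came from the same cohorts as its CD mice, and their reads were aligned to the same genome. A difference that recurred on WD therefore shares both features. Counts hold reads that mapped to 1 place, so genes of the Mup, Mug, Serpina, Cyp, Ugt, Ces, Trim, H2 and Ifi families, which have close copies, are uncertain as single genes. Whether the counting used strand is not given in the sources used here, and Hmgcs1, Cyp51, Ccnd1, Arntl, Dbp, Csad, Fn1 and Cyp2a4 among the genes below overlap an annotated gene on the opposite strand.

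Nicotinamide nucleotide transhydrogenase (Nnt), an enzyme of the mitochondrial inner membrane that carries a known deletion in C57BL/6J, was used to check the labels. It lay at 116 to 144 CPM (median 127) in 129S1/SvImJ and 58 to 80.9 CPM (median 66.7) in C57BL/6J (log2 fold change 0.93 with an SE of 0.07, adjusted p = 2.4e-21), and every mouse was on the side of its label. One mouse stood apart. C57BL/6J replicate 2 had 178 CPM of Gpnmb, 89.4 of Col1a1 and 30.6 of Mki67, where the other C57BL/6J mice had at most 7.88, 20.7 and 9.75. These genes mark lipid-associated macrophages, fibrillar collagen and dividing cells. Replicates 4 and 6 shared part of the pattern, with 512 and 412 CPM of Gstm3, a glutathione transferase, against 53.5 to 84.2 CPM in the other 5 mice without replicate 2. All 3 were kept, and results that rest on them are given without them too.

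About as many genes were called between the strains as were not called. Of the 19110 genes, 9350 were called (48.9%), 4679 higher and 4671 lower in 129S1/SvImJ, and the median log2 fold change over all genes was -0.0048. These shares, 24.5% higher and 24.4% lower, are the scale for the counts of each list below. A list with about 48.9% called was called no more often than genes in general. At least a 2-fold difference was reached by 3184 genes (16.7%), 1148 higher (6.01%) and 2036 lower (10.7%). The values of the 7 and the 8 mice did not overlap for 3262 called genes (17.1%), 1712 higher (8.96%) and 1550 lower (8.11%). Without C57BL/6J replicate 2 the count was 8741, and without replicates 2, 4 and 6 it was 7337. With cohort as an added term 6739 genes were called, 3365 higher and 3374 lower, and 6499 of the 9350 (69.5%) kept their call and direction. The strain also set apart the mice along the first principal component, which held 55.5% of the variance, and replicate 2 lay apart along the second (15.2%). In the WD mice, 7234 genes were called (37.9%). Of the 9350 genes called on CD, 8656 (92.6%) had the same sign on WD and 5566 (59.5%) were also called there in the same direction, against 40 called in the opposite direction. Of the 3184 with at least a 2-fold difference, 2235 (70.2%) were called in the same direction on WD.

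The largest differences were of genes read in one strain and close to absent in the other. Myom2, a protein of the sarcomere's M-band that liver is not known for, lay at 12.9 to 18.2 CPM (median 15.2) in 129S1/SvImJ, which is at least 528 reads per mouse, and had 0 or 1 read in each C57BL/6J mouse (log2 fold change 10.03 with an SE of 0.98, adjusted p = 1.1e-14). The fitted log2 fold change of a gene with so few reads in one strain depends on the small count added before the logarithm and is no measure of size. Ctse, the aspartic protease cathepsin E, lay at 66.4 to 86.6 CPM (median 79.2) in 129S1/SvImJ and 0.309 to 0.693 CPM (median 0.404) in C57BL/6J (log2 fold change 7.40 with an SE of 0.34, adjusted p = 3.4e-33). The groups were far from overlapping, and the difference was 6.10, adjusted p = 5.9e-40 on WD. Ren1, the gene of renin, was at 6.89 to 17.1 CPM (median 9.91) in 129S1/SvImJ and 0.0196 to 0.353 CPM (median 0.104) in C57BL/6J (6.44, adjusted p = 3.3e-09). Renin is a kidney hormone. Liver reads assigned to Ren1 were above 6 CPM in each 129S1/SvImJ mouse and below 1 CPM in each C57BL/6J mouse. Whether all of them came from this gene was not tested. Htr1d, a serotonin receptor, followed with 0.932 to 2.87 CPM (median 2.15) in 129S1/SvImJ and 0 to 0.0365 CPM (median 0.019) in C57BL/6J (6.57, adjusted p = 1.5e-17).

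Genes close to absent in 129S1/SvImJ were the mirror of these. Cebpe, a transcription factor of granulocyte maturation, had 0 or 1 read in each 129S1/SvImJ mouse and lay at 4.22 to 6.91 CPM (median 4.95) in C57BL/6J (log2 fold change -8.25 with an SE of 0.59, adjusted p = 1.1e-21). Camk2b, a subunit of the calcium/calmodulin-dependent kinase, lay at 0.0211 to 0.189 CPM (median 0.105) in 129S1/SvImJ and 6.74 to 15 CPM (median 11.3) in C57BL/6J (log2 fold change -6.85 with an SE of 0.71, adjusted p = 8.6e-14). Every C57BL/6J mouse was more than 6 CPM and no 129S1/SvImJ mouse reached 1 CPM. Srd5a2, a steroid 5-alpha-reductase, lay at 1.2 to 12.4 CPM (median 1.65) in C57BL/6J, where replicate 2 was the highest, and at 0 or 1 read in 129S1/SvImJ (-7.39, adjusted p = 2.3e-17). Nlrp12, an inflammasome-family sensor of myeloid cells, lay at 0.273 to 1.94 CPM (median 0.911) in 129S1/SvImJ and 17.6 to 89.3 CPM (median 50.1) in C57BL/6J (-5.99, adjusted p = 1.7e-15). In the annotation it overlaps microRNA genes on both strands. In all, 9 genes had at most 3 reads in every mouse of one strain and over 2 CPM in every mouse of the other, 5 on in 129S1/SvImJ and 4 on in C57BL/6J. Beside Myom2, Cebpe and Trim12a these were 6 genes with clone names, among them Gm42047, a noncoding RNA at 54.7 to 221 CPM (median 92.6) in C57BL/6J and at most 0.0421 CPM in 129S1/SvImJ.

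**Figure D1:**
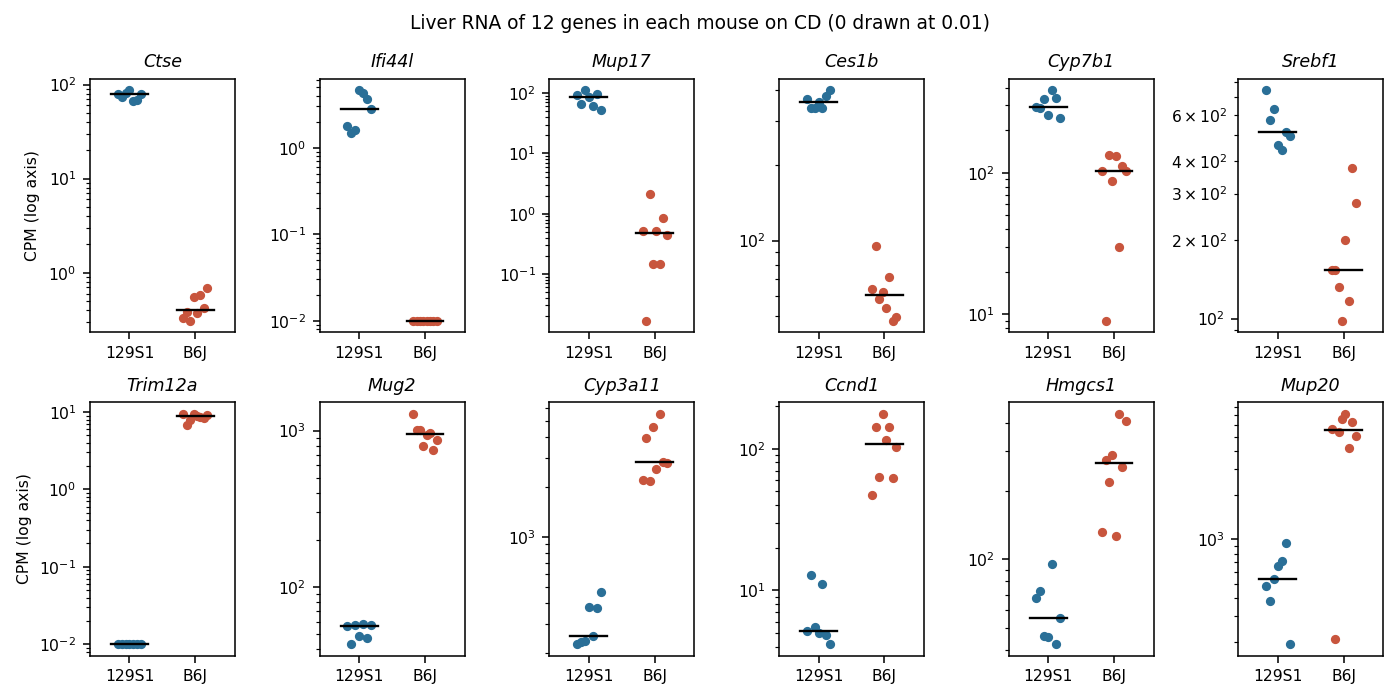
Each point is 1 mouse on CD (7 of 129S1/SvImJ in blue, 8 of C57BL/6J in red), the y axis is CPM on a log scale that differs between panels, with 0 drawn at 0.01, and the bar is the group's median. The upper row holds 6 genes higher in 129S1/SvImJ and the lower row 6 genes lower; only for Mup20 did the groups overlap, through C57BL/6J replicate 2 at 209 CPM.

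Interferons are cytokines of antiviral defense, and they switch on a large set of genes through STAT and IRF factors that bind a short interferon response element near the gene start. Of 79 interferon-stimulated genes tested, 12 were higher and 41 lower in 129S1/SvImJ (median log2 fold change -0.58), beside 24.5% higher and 24.4% lower over all genes. The largest differences were all-or-none and ran in both directions. Trim12a, a member of the Trim family of restriction factors around the Trim5 gene, had no read in any of the 7 129S1/SvImJ mice and lay at 6.82 to 9.49 CPM (median 8.77) in C57BL/6J, at least 132-fold lower with a floor of 3 counts per library. Ifi44l had no read in any of the 8 C57BL/6J mice and lay at 1.49 to 4.6 CPM (median 2.82) in 129S1/SvImJ, at least 50-fold higher with the same floor. On WD Trim12a again had no read in 129S1/SvImJ and lay at 8.51 to 11.3 CPM in C57BL/6J, and Ifi44l had none in C57BL/6J and lay at 2.02 to 3.76 CPM in 129S1/SvImJ.

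The promoters of genes that carry this contrast are shown from RefSeq on GRCm38.p6, from 250 bases before the start of transcription to 50 bases after it, in the reference allele, which is that of C57BL/6J. Capitals mark each match to the interferon response element, searched as TTTC, any 2 bases and TTTC again on either strand.
Trim12a (chr7:104315446-104315745, minus strand): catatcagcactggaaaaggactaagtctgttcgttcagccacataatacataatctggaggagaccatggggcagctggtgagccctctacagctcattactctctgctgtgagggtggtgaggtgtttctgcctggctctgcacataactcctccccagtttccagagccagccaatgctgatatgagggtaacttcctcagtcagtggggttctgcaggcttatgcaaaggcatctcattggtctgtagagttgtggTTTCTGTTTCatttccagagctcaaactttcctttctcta
Ifi213 (chr1:173599223-173599522, minus strand): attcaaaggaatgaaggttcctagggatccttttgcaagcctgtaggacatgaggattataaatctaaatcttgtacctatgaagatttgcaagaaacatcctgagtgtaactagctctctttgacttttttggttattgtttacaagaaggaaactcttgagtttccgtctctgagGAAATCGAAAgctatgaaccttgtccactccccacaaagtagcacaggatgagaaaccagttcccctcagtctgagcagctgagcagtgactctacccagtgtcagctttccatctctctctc
Ifi44l (chr3:151762842-151763141, minus strand): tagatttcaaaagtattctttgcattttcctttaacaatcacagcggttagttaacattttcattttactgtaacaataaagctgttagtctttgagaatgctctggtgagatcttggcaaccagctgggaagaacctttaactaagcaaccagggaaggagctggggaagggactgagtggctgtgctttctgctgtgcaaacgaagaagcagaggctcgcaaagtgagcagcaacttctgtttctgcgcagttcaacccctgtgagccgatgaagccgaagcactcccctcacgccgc
Ifi202b (chr1:173982795-173983094, minus strand): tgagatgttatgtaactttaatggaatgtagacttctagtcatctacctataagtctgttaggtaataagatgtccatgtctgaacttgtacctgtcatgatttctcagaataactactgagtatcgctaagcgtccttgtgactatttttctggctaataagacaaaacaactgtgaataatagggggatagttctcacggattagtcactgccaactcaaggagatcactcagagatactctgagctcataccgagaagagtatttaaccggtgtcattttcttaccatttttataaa
The matches start 11 bases into the transcript of Trim12a and 73 bases before the start of Ifi213, and the windows of Ifi44l and Ifi202b held none. Promoters were at hand for 59 of the 79 interferon-stimulated genes, and 40 of them (67.8%) held a match, against 943 of 27025 promoters in all (3.49%). A match was held by 7 of the 11 promoters of genes higher in 129S1/SvImJ, by 21 of 31 of genes lower and by 12 of 17 of genes not called. The letters were thus about as frequent whichever way the gene differed between the strains.

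Many of these genes sit side by side. On chromosome 7, between 102557921 and 106215326 (GRCm38), 12 Trim and Gvin genes were tested and 7 were lower in 129S1/SvImJ, among them Trim5 at 0 to 0.0213 CPM (median 0) in 129S1/SvImJ and 1.8 to 3.08 CPM (median 2.56) in C57BL/6J (-7.13, adjusted p = 1.2e-23) and Trim30d at 0.246 to 1.06 CPM (median 0.421) in 129S1/SvImJ and 4.92 to 13.6 CPM (median 10.7) in C57BL/6J (-4.33, adjusted p = 1e-24). Trim34b and Trim12c, close copies in the same stretch, were higher. On chromosome 1, between 173350879 and 174031810, 13 genes of the Ifi200 family, which encode DNA sensors of the AIM2-like class, were tested: 9 were lower and 1, Ifi202b, was higher. Ifi213 lay at 0 to 0.065 CPM (median 0) in 129S1/SvImJ and 1.92 to 4.07 CPM (median 2.64) in C57BL/6J (log2 fold change -7.08 with an SE of 0.46, adjusted p = 4.5e-24), and its neighbour Ifi206 at 0 to 0.0867 CPM (median 0.0492) in 129S1/SvImJ and 1.2 to 2.98 CPM (median 2.07) in C57BL/6J (-5.30, adjusted p = 2e-15). Ifi202b went the other way, at 2.43 to 4.12 CPM (median 3.29) in 129S1/SvImJ and 0 to 0.073 CPM (median 0) in C57BL/6J (log2 fold change 7.59 with an SE of 0.50, adjusted p = 1.2e-23). These 2 stretches were chosen after the values were seen.

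Other interferon genes differed between the cohorts of 129S1/SvImJ. Ifit1, an inhibitor of viral RNA translation, was at 4.87 to 6.7 CPM in the 3 mice of cohort 3 and at 18.6 to 29.8 CPM in the 4 mice of cohort 5, against 4.89 to 5.51 CPM and 6.86 to 13.5 CPM in cohorts 1 and 2 of C57BL/6J. Xaf1, a proapoptotic interferon target, was at 11.5 to 12 CPM and 21.1 to 35 CPM in the 129S1/SvImJ cohorts and at 5.04 to 8.19 CPM and 6.96 to 12.7 CPM in the C57BL/6J cohorts. The higher 129S1/SvImJ cohort exceeded every C57BL/6J mouse for both genes, and the lower one did not. With cohort 3 set against each C57BL/6J cohort, 5 and 3 of the 79 genes were higher and 51 and 56 lower; with cohort 5, 26 and 22 were higher and 27 and 26 lower. With cohort as an added term, 7 were higher and 33 lower, and Ifit1 was not called (0.50, adjusted p = 0.36). On WD, 7 were higher and 60 lower. Of the 38 genes of antigen presentation, 5 were higher and 21 lower in 129S1/SvImJ (median log2 fold change -0.48), where 10 were lower with cohort as an added term. The class I genes H2-Q1 and H2-Bl showed opposite differences, H2-Q1 at 2.15 to 5.98 CPM (median 4.32) in 129S1/SvImJ and 13.9 to 36.7 CPM (median 25.3) in C57BL/6J (-2.53, adjusted p = 2.8e-14) and H2-Bl at 12.6 to 18.1 CPM (median 15) in 129S1/SvImJ and 0.0504 to 3.0 CPM (median 0.758) in C57BL/6J (4.47, adjusted p = 6.8e-26).

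**Figure D2:**
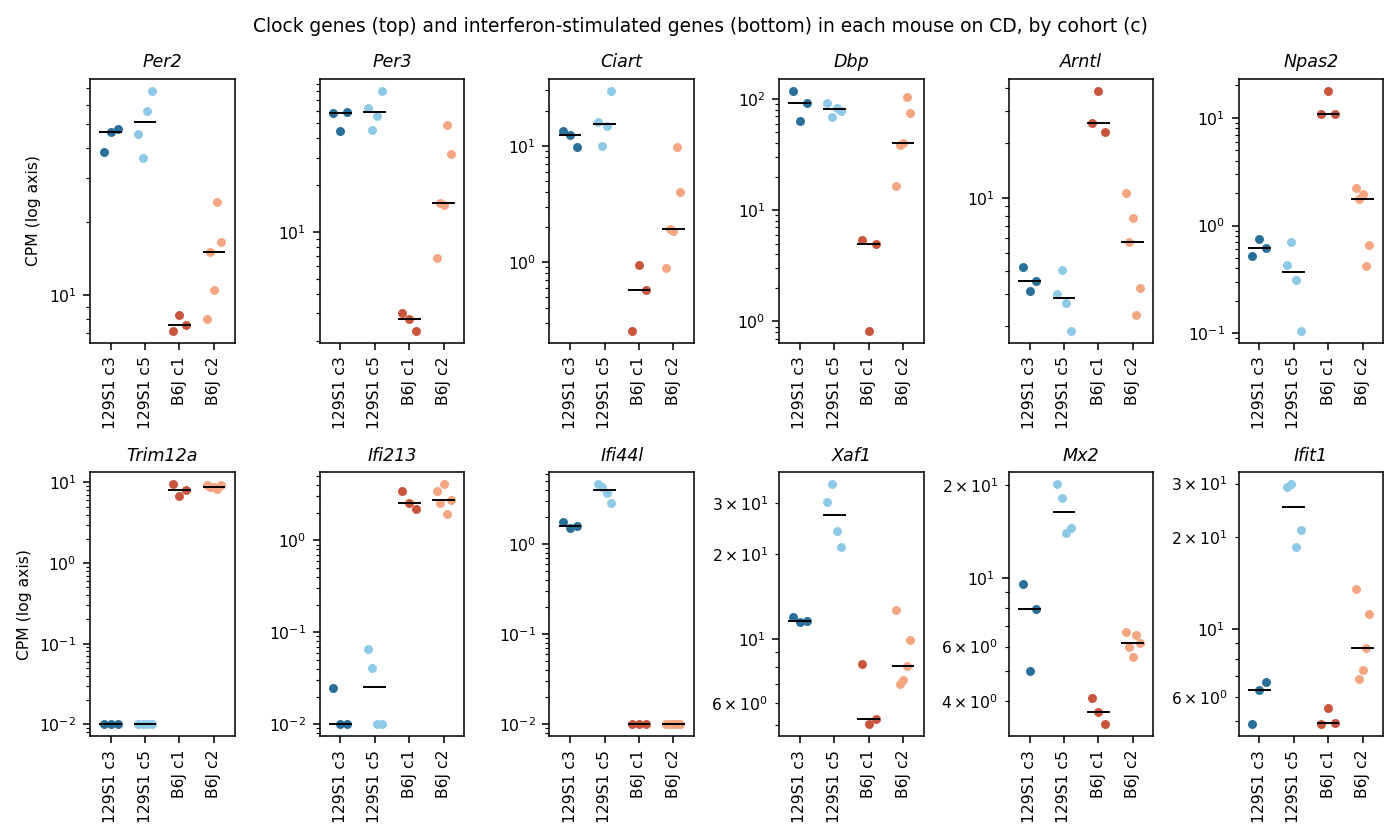
Each point is 1 mouse on CD, split by strain (129S1 for 129S1/SvImJ, B6J for C57BL/6J) and cohort (c), on a log CPM axis with 0 drawn at 0.01, and bars are cohort medians. Trim12a, Ifi213 and Ifi44l separated the strains in every cohort, Xaf1, Mx2 and Ifit1 were highest in 129S1/SvImJ cohort 5, and Arntl and Npas2 were highest in C57BL/6J cohort 1.

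Major urinary proteins are pheromone carriers that male liver makes in bulk under pulsatile growth hormone and excretes in urine. Of 21 Mup genes tested, 10 were higher and 1 lower in 129S1/SvImJ (median log2 fold change 1.53). Their summed level was 5452 to 11200.4 CPM (median 8945) in 129S1/SvImJ and 262 to 15075 CPM (median 11519) in C57BL/6J, so the median of the sum was lower where more single genes were higher. The tested genes lie on chromosome 4 between 59964294 and 62150863. Mup17 lay at 51.8 to 111 CPM (median 86.7) in 129S1/SvImJ and 0.0168 to 2.08 CPM (median 0.473) in C57BL/6J (log2 fold change 7.98 with an SE of 0.91, adjusted p = 4.7e-12), and Mup1 at 31.3 to 61.1 CPM (median 38.9) in 129S1/SvImJ and 0.0168 to 2.45 CPM (median 0.72) in C57BL/6J (6.64, adjusted p = 3.3e-12, and 6.00, adjusted p = 9e-12 without C57BL/6J replicate 2). Both were thus present in each 129S1/SvImJ mouse and near 0 to about 2 CPM in C57BL/6J. Mup20, which encodes the male attractant darcin, was the opposite, at 194 to 939 CPM (median 534) in 129S1/SvImJ and 209 to 7154 CPM (median 5511) in C57BL/6J (log2 fold change -2.91 with an SE of 0.36, adjusted p = 1.1e-10). In C57BL/6J every mouse but replicate 2 was above every 129S1/SvImJ mouse, and without replicate 2 the log2 fold change was -3.49, adjusted p = 3.3e-18. Mup3, the most read of the family in 129S1/SvImJ, lay at 4742 to 8445 CPM (median 6985) in 129S1/SvImJ and 49.7 to 8551 CPM (median 5184) in C57BL/6J (1.33, adjusted p = 0.0079), but its difference was 0.53, adjusted p = 0.085 without replicate 2 and -0.02, adjusted p = 0.95 without replicates 2, 4 and 6. Without replicate 2, 9 Mup genes were higher and 5 lower with a median log2 fold change of 0.90, and with all mice edgeR and DESeq2 also called 6 lower.

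Serpins are protease inhibitors of plasma, and several of their mouse genes come in clusters of close copies. Of 36 tested, 15 were higher and 14 lower in 129S1/SvImJ (median log2 fold change 0.11). The alpha-1-antitrypsin genes, on chromosome 12 between 103728156 and 103958975, split. Serpina1e lay at 46.7 to 78 CPM (median 56) in 129S1/SvImJ and 388 to 4100.2 CPM (median 1625) in C57BL/6J (log2 fold change -4.85 with an SE of 0.58, adjusted p = 2e-11) and Serpina1d at 365 to 724 CPM (median 487) in 129S1/SvImJ and 1512 to 3206 CPM (median 2233) in C57BL/6J (-2.11, adjusted p = 2.3e-27), while Serpina1c lay at 1428 to 1821 CPM (median 1714) in 129S1/SvImJ and 373 to 859 CPM (median 719) in C57BL/6J (1.39, adjusted p = 8.2e-15). None of the 3 overlapped between the strains. Serpina3c, an antichymotrypsin-like copy, was at 21 to 32.6 CPM (median 28.9) in 129S1/SvImJ and 0.274 to 0.722 CPM (median 0.483) in C57BL/6J (5.84, adjusted p = 1.2e-24). The murinoglobulins, plasma protease traps of the alpha-2-macroglobulin family, also split. Mug2 lay at 43.2 to 57.9 CPM (median 56.7) in 129S1/SvImJ and 749.6 to 1279 CPM (median 951) in C57BL/6J (log2 fold change -4.17 with an SE of 0.19, adjusted p = 1.8e-33), and Mug1 at 5312 to 8222 CPM (median 6425) in 129S1/SvImJ and 1292 to 3286 CPM (median 2726) in C57BL/6J (log2 fold change 1.45 with an SE of 0.14, adjusted p = 1.4e-14).

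Among 35 acute phase proteins, which liver secretes in inflammation, 11 were higher and 4 lower in 129S1/SvImJ (median log2 fold change 0.14). In all, 42.9% were called, below the 48.9% over all genes. Saa4, a constitutive serum amyloid A of lipoproteins, lay at 362 to 758 CPM (median 445) in 129S1/SvImJ and 80.3 to 167 CPM (median 123) in C57BL/6J (1.94, adjusted p = 1.2e-09). Apcs, serum amyloid P, lay at 190.3 to 367 CPM (median 255) in 129S1/SvImJ and 66.7 to 209 CPM (median 80.2) in C57BL/6J (1.46, adjusted p = 5e-05). Of 40 complement genes, 17 were higher and 9 lower in 129S1/SvImJ (median log2 fold change 0.13). Those higher included C4b, at 1545 to 2362 CPM (median 1834) in 129S1/SvImJ and 653 to 1247 CPM (median 1081) in C57BL/6J (0.82, adjusted p = 2.6e-07), and the members of the membrane attack complex C8a (0.58), C8b (0.65) and C9 (0.45). Without C57BL/6J replicate 2, C8b and C9 were not called (0.52, adjusted p = 0.06, and 0.33, adjusted p = 0.08). Those lower included C1qa (-1.16), C1qb (-0.90), C1qc (-0.89) and C3ar1 (-1.57), which macrophages express. Of 29 genes of coagulation and clot breakdown, 14 were higher and 7 lower in 129S1/SvImJ (median log2 fold change 0.21). F11, which encodes clotting factor XI, lay at 121 to 154 CPM (median 131) in 129S1/SvImJ and 36.4 to 64.3 CPM (median 47.5) in C57BL/6J (log2 fold change 1.45 with an SE of 0.12, adjusted p = 1.4e-17), without overlap, and F7, F10, Plg and Proc were higher too (log2 fold changes 0.77, 0.56, 0.61 and 0.49). Plat and Plau, plasminogen activators, and Thbd, an endothelial anticoagulant receptor, were lower (-1.63, -1.26 and -1.18). Plat was far highest in C57BL/6J replicate 2, at 13.2 CPM, and was not called without replicates 2, 4 and 6 (-0.61, adjusted p = 0.34) or with cohort as an added term (-1.46, adjusted p = 0.082). In either case 4 genes of the list were lower.

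Cytochromes P450 oxidize drugs, steroids and fatty acids. Of 53 P450 genes tested, 24 were higher and 10 lower in 129S1/SvImJ (median log2 fold change 0.36), and without C57BL/6J replicates 2, 4 and 6 they were 16 and 8. Cyp3a11, the main xenobiotic-inducible P450 of mouse liver, lay at 226 to 462 CPM (median 254) in 129S1/SvImJ and 2179 to 5503 CPM (median 2816) in C57BL/6J (log2 fold change -3.40 with an SE of 0.23, adjusted p = 1.7e-22). The lowest C57BL/6J mouse was above the highest 129S1/SvImJ mouse by more than 4 times. Among 9 tested Cyp3a genes of chromosome 5, between 137892932 and 146113287, Cyp3a11 was the only one called. The difference was -0.98, adjusted p = 0.0015 on WD, and the change with diet was 2.42, adjusted p = 1.6e-06. Cyp2e1, the ethanol-inducible P450 of hepatocytes around the central vein, lay at 7579 to 11834 CPM (median 9735) in 129S1/SvImJ and 1563 to 7284 CPM (median 4619.8) in C57BL/6J (log2 fold change 1.21 with an SE of 0.18, adjusted p = 2.5e-08), without overlap.

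The Cyp2c genes of chromosome 19, between 39007019 and 44029208, divided evenly, 6 higher and 6 lower of 13. Cyp2c39 was at 72.4 to 284 CPM (median 119) in 129S1/SvImJ and 1.75 to 6.13 CPM (median 3.25) in C57BL/6J (5.30, adjusted p = 3e-12), and Cyp2c55 at 0.169 to 0.394 CPM (median 0.289) in 129S1/SvImJ and 3.42 to 32.4 CPM (median 8.07) in C57BL/6J (-4.92, adjusted p = 3.1e-11). Cyp2a4, a female-biased steroid hydroxylase, lay at 252 to 361 CPM (median 318) in 129S1/SvImJ and 4.6 to 419 CPM (median 12.2) in C57BL/6J (3.66, adjusted p = 1.7e-07), where C57BL/6J replicate 2, at 419 CPM, was above every 129S1/SvImJ mouse and replicate 6, at 282 CPM, was within their range. Without replicate 2 the value was 4.26, adjusted p = 4.8e-10. Conjugation enzymes attach sugars, sulfate or glutathione to the products: of 56, 17 were higher and 19 lower in 129S1/SvImJ (median log2 fold change 0.04), with 11 higher and 17 lower without replicates 2, 4 and 6. Ugt1a9 lay at 129.9 to 172 CPM (median 142) in 129S1/SvImJ and 15.4 to 43.2 CPM (median 18.5) in C57BL/6J (log2 fold change 2.75 with an SE of 0.17, adjusted p = 7.4e-26), and it shares exons with the other genes of its locus. Ces1b, a carboxylesterase, lay at 338 to 398 CPM (median 356) in 129S1/SvImJ and 47.9 to 95.4 CPM (median 60.4) in C57BL/6J (log2 fold change 2.54 with an SE of 0.10, adjusted p = 7.1e-38) and kept its size on WD (2.81, adjusted p = 1.1e-39). Of 33 targets of NRF2, the factor of the oxidative stress response, 6 were higher and 20 lower in 129S1/SvImJ (median log2 fold change -0.38). Their summed level had a median of 11524 CPM in 129S1/SvImJ and 10516 CPM in C57BL/6J, opposite in direction to the count. They included Gsta1 at 0.0217 to 0.189 CPM (median 0.0851) in 129S1/SvImJ and 0.506 to 23.4 CPM (median 1.46) in C57BL/6J (-4.74, adjusted p = 2.3e-05), Nqo1 (-1.05) and Hmox1 (-0.85) among those lower. Aox3, an aldehyde oxidase, was the member with the largest difference upward, at 982 to 1384 CPM (median 1146) in 129S1/SvImJ and 182 to 446 CPM (median 349.7) in C57BL/6J (1.85, adjusted p = 3.4e-14).

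Cholesterol synthesis is run by SREBP2, which binds sterol response elements when sterols in the membrane of the endoplasmic reticulum are scarce. Of its 20 enzymes tested, 0 were higher and 9 lower in 129S1/SvImJ (median log2 fold change -0.43). The share called, 45%, was below the 48.9% over all genes, while the share called lower was above the 24.4% over all genes. No gene of the list was higher at an unadjusted p below 0.05 by limma-voom either, and edgeR and DESeq2 called 0 higher. Hmgcs1, HMG-CoA synthase, lay at 42.4 to 95.5 CPM (median 55.3) in 129S1/SvImJ and 127 to 438 CPM (median 265) in C57BL/6J (log2 fold change -2.07 with an SE of 0.25, adjusted p = 4.3e-11), without overlap. Cyp51, lanosterol demethylase, lay at 50.6 to 95.8 CPM (median 64) in 129S1/SvImJ and 141 to 275 CPM (median 194) in C57BL/6J (log2 fold change -1.52 with an SE of 0.20, adjusted p = 4.2e-10). For Sqle, squalene epoxidase, the groups overlapped at 33.1 to 93.7 CPM (median 46.1) in 129S1/SvImJ and 63.4 to 136 CPM (median 114) in C57BL/6J (-0.97, adjusted p = 0.0025). With cohort as an added term 5 were lower, without Sqle (-0.95, adjusted p = 0.073). On WD 4 of the 20 were higher and 3 lower, and between the pairs of CD cohorts the count lower ran from 3 to 10, with 0 higher in each by limma-voom. Of 15 promoters at hand for the list, that of Hmgcs1 alone matched the searched sterol response element TCACNCCAC on either strand, beside 330 of 27025 promoters (1.22%). The match is in capitals, 137 bases before the start of transcription; Cyp51, with the next largest difference among the genes described, held none.
Hmgcs1 (chr13:119690101-119690400, plus strand): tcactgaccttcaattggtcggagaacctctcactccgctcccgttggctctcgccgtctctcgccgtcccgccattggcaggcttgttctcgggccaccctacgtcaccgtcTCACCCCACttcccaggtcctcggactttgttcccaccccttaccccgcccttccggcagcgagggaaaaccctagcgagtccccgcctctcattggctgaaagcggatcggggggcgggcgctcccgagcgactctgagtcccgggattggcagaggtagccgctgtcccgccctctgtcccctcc

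Fatty acid and triglyceride synthesis did not move as one. Of 27 genes, 8 were higher and 12 lower in 129S1/SvImJ (median log2 fold change -0.16). With cohort as an added term 4 were higher and 7 lower, and without C57BL/6J replicate 2 the median was -0.37. Srebf1, the gene of the lipogenic factor SREBP1, lay at 439.6 to 743 CPM (median 518) in 129S1/SvImJ and 98.1 to 375 CPM (median 153) in C57BL/6J (log2 fold change 1.67 with an SE of 0.21, adjusted p = 3.5e-10), and Thrsp, the lipogenic gene Spot14, at 396 to 608 CPM (median 481) in 129S1/SvImJ and 29.8 to 347 CPM (median 100.2) in C57BL/6J (log2 fold change 2.13 with an SE of 0.39, adjusted p = 4e-06). Neither overlapped between the strains. Their difference was -0.21, adjusted p = 0.51 and 0.96, adjusted p = 0.057 on WD. Fasn, fatty acid synthase, lay at 835 to 1454 CPM (median 1032) in 129S1/SvImJ and 449 to 1406 CPM (median 954) in C57BL/6J and was not called (0.21, adjusted p = 0.59). Scd1, the stearoyl-CoA desaturase, lay at 3335 to 12324 CPM (median 10580.1) in 129S1/SvImJ and 4711 to 27709 CPM (median 16459) in C57BL/6J (-0.78, adjusted p = 0.015), but without 129S1/SvImJ replicate 7, the lowest at 3335 CPM, it was -0.54 with an adjusted p of 0.10, and with cohort as an added term it was -0.88, adjusted p = 0.0505. Pnpla3, a lipase of lipid droplets, lay at 2.19 to 4.88 CPM (median 3.35) in 129S1/SvImJ and 5.0 to 21.8 CPM (median 11.5) in C57BL/6J (-1.58, adjusted p = 0.014).

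Of 22 genes of lipid droplets and steatosis, 3 were higher and 11 lower in 129S1/SvImJ (median log2 fold change -0.48). The count lower was 14 without C57BL/6J replicate 2 and 7 with cohort as an added term. In the study's histology, steatosis on CD was highest in 129S1/SvImJ among all strains, opposite in direction to these RNA counts. Plin2, a coat protein of lipid droplets, lay at 205 to 537 CPM (median 352) in 129S1/SvImJ and 331 to 1616 CPM (median 1165) in C57BL/6J (log2 fold change -1.58 with an SE of 0.28, adjusted p = 2.2e-06). C57BL/6J replicate 2 was the one C57BL/6J mouse within the 129S1/SvImJ range, and without it the value was -1.80, adjusted p = 8e-08. Pparg, a nuclear receptor of fat storage, lay at 1.32 to 2.44 CPM (median 1.83) in 129S1/SvImJ and 5.46 to 16.4 CPM (median 10.5) in C57BL/6J (log2 fold change -2.47 with an SE of 0.36, adjusted p = 1.9e-08), and Cidec, which fuses droplets, at 2.72 to 3.72 CPM (median 3.35) in 129S1/SvImJ and 6.03 to 68.8 CPM (median 13.4) in C57BL/6J (-2.20, adjusted p = 0.0013). Neither overlapped. Cd36, a fatty acid transporter, was at 20.5 to 24 CPM (median 22) in 129S1/SvImJ and 38.8 to 157 CPM (median 50.7) in C57BL/6J (-1.41, adjusted p = 2e-08). Vldlr went the other way, at 6.5 to 10.6 CPM (median 7.44) in 129S1/SvImJ and 2.25 to 4.99 CPM (median 3.21) in C57BL/6J (1.26, adjusted p = 2.5e-05).

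Fatty acid oxidation, which PPARα drives in fasting, was divided: of 32, 5 were higher and 8 lower in 129S1/SvImJ (median log2 fold change -0.13). The share called was 40.6%, below the 48.9% over all genes. Without C57BL/6J replicate 2 the counts were 3 higher and 10 lower (median -0.28), and with cohort as an added term 5 were higher and 3 lower. Pdk4, the kinase that shuts pyruvate dehydrogenase, lay at 2.98 to 4.55 CPM (median 4.02) in 129S1/SvImJ and 11.7 to 81.6 CPM (median 38.4) in C57BL/6J (log2 fold change -3.19 with an SE of 0.87, adjusted p = 0.0014). Fgf21, a liver hormone of fasting, lay at 6.58 to 11.7 CPM (median 9.88) in 129S1/SvImJ and 13.9 to 64.4 CPM (median 51.1) in C57BL/6J (log2 fold change -2.26 with an SE of 0.38, adjusted p = 5.9e-07). Both were lower in each 129S1/SvImJ mouse than in every C57BL/6J mouse. Cpt1a, the gate of fatty acids into mitochondria, was not called, at 439 to 672 CPM (median 531) in 129S1/SvImJ and 193 to 875 CPM (median 641) in C57BL/6J (-0.10, adjusted p = 0.68). Between cohort pairs the list's direction turned: 7 and 10 higher with 3 and 4 lower against C57BL/6J cohort 1, and 1 and 2 higher with 7 and 8 lower against cohort 2.

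Bile acids are made from cholesterol by a classical route through Cyp7a1 and an alternative route through Cyp7b1. Of 26 genes of their synthesis and transport, 13 were higher and 5 lower in 129S1/SvImJ (median log2 fold change 0.43), and with cohort as an added term 10 were higher and 5 lower (median 0.08). Cyp7a1, the rate-limiting enzyme, lay at 175 to 1010.2 CPM (median 304) in 129S1/SvImJ and 10.1 to 315 CPM (median 115) in C57BL/6J (log2 fold change 1.97 with an SE of 0.52, adjusted p = 0.00096), with some overlap. Its difference was 2.50, adjusted p = 0.00011 on WD, and 1.69, adjusted p = 0.057 on CD with cohort as an added term. Cyp7b1 lay at 244 to 383 CPM (median 293) in 129S1/SvImJ and 9.01 to 133 CPM (median 103) in C57BL/6J (log2 fold change 2.14 with an SE of 0.33, adjusted p = 8e-08), without overlap. Cyp39a1, which acts on 24-hydroxycholesterol, was lower, at 11.7 to 32.4 CPM (median 17.1) in 129S1/SvImJ and 49.7 to 95.4 CPM (median 64) in C57BL/6J (-1.90, adjusted p = 1.2e-08). Cyp8b1, which sets the share of cholic acid, lay at 259 to 452 CPM (median 351) in 129S1/SvImJ and 44.6 to 509 CPM (median 215) in C57BL/6J (0.78, adjusted p = 0.011), and was 0.47, adjusted p = 0.095 without C57BL/6J replicate 2.

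Genes of hepatocyte intermediary metabolism were mostly higher in 129S1/SvImJ or not called. Of 52 genes of amino acid breakdown and the urea cycle, 35 were higher and 2 lower in 129S1/SvImJ (median log2 fold change 0.45), and 28 were higher and 4 lower on WD. Sds, serine dehydratase, lay at 110.5 to 175 CPM (median 138) in 129S1/SvImJ and 38.5 to 106 CPM (median 54.5) in C57BL/6J (log2 fold change 1.26 with an SE of 0.22, adjusted p = 9.2e-07), without overlap. Prodh, proline dehydrogenase (1.04), Gnmt, glycine N-methyltransferase (0.88), and Asl, argininosuccinate lyase (0.83), were among the others higher. The exceptions were Csad, which makes taurine, at 68.1 to 198 CPM (median 139) in 129S1/SvImJ and 159 to 440.4 CPM (median 356) in C57BL/6J (log2 fold change -1.39 with an SE of 0.23, adjusted p = 3.8e-07), and Ahcy (-0.50).

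Of 76 nuclear-encoded subunits of the respiratory chain, 46 were higher and 6 lower in 129S1/SvImJ (median log2 fold change 0.18). With the library scaled by upper quartiles in place of TMM, 36 were higher and 10 lower. Sdhb and Ndufs5 had the largest differences in each direction. Sdhb, the iron-sulfur subunit of complex II, lay at 216 to 249 CPM (median 232) in 129S1/SvImJ and 112 to 165 CPM (median 127) in C57BL/6J (log2 fold change 0.79 with an SE of 0.07, adjusted p = 2.2e-17), and Ndufs5, of complex I, at 9.38 to 11.5 CPM (median 10.1) in 129S1/SvImJ and 25 to 31.2 CPM (median 28) in C57BL/6J (log2 fold change -1.48 with an SE of 0.07, adjusted p = 2.1e-33). Both held on WD, at 0.58 and -1.87, whereas 14 subunits were higher and 8 lower there. Of 13 transcripts of mitochondrial DNA, 1 was higher and 2 lower in 129S1/SvImJ (median log2 fold change -0.001). The share called was 23.1%, below the 48.9% over all genes. With cohort as an added term 1 was higher and 1 lower. The gene higher was mt-Co1 (0.46, adjusted p = 1.9e-07). It lay at 28345 to 32071 CPM (median 29679) in 129S1/SvImJ and 18101 to 26425 CPM (median 21583) in C57BL/6J. The 2 lower included mt-Nd2 (-0.30, adjusted p = 0.0047). In 28 genes of glucose handling, 17 were higher and 2 lower in 129S1/SvImJ (median log2 fold change 0.46). Without C57BL/6J replicate 2 the counts were 13 higher and 4 lower, and with cohort as an added term 10 were higher and 2 lower. By edgeR and DESeq2 they were 14 and 4. On WD 5 were higher and 6 lower, with a median log2 fold change of -0.12. G6pc, the last step of glucose release, lay at 629 to 1569.9 CPM (median 1292) in 129S1/SvImJ and 174 to 1188 CPM (median 674) in C57BL/6J (0.98, adjusted p = 0.025), and its difference was 0.73, adjusted p = 0.10 without C57BL/6J replicate 2 and 1.02, adjusted p = 0.097 with cohort as an added term. Of 20 hepatocyte markers, 10 were higher and 1 lower in 129S1/SvImJ (median log2 fold change 0.28). The one lower was Alb, albumin, the gene with the most reads, at 73141 to 105394 CPM (median 78283) in 129S1/SvImJ and 88962 to 107503 CPM (median 100804) in C57BL/6J (-0.31, adjusted p = 0.003). The summed level of the markers, with Alb, had a median of 144553 CPM in 129S1/SvImJ and 155694 CPM in C57BL/6J. That was opposite in direction to the count, and the groups overlapped.

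Markers of macrophages and lymphocytes were mostly lower in 129S1/SvImJ. In bulk tissue, fewer cells of a type and less RNA per cell cannot be told apart. Of 20 macrophage and recruited myeloid markers, 0 were higher and 19 lower in 129S1/SvImJ (median log2 fold change -1.29), and their summed level was 107 to 153 CPM (median 138) in 129S1/SvImJ and 209.5 to 1230.1 CPM (median 296) in C57BL/6J. Even the lowest C57BL/6J mouse was thus above the highest 129S1/SvImJ mouse. Without C57BL/6J replicates 2, 4 and 6, 13 of the 20 were lower, and on WD 0 were higher and 9 lower. Cd68, a macrophage lysosomal protein, lay at 7.55 to 10.5 CPM (median 9.43) in 129S1/SvImJ and 12.9 to 42.5 CPM (median 21.3) in C57BL/6J (log2 fold change -1.22 with an SE of 0.19, adjusted p = 1.1e-07). Trem2, a receptor of lipid-associated macrophages, lay at 0.0421 to 0.173 CPM (median 0.0826) in 129S1/SvImJ and 0.495 to 15.3 CPM (median 0.967) in C57BL/6J (-4.03, adjusted p = 3.4e-05). Gpnmb, of the same cells, lay at 0.0425 to 0.589 CPM (median 0.248) in 129S1/SvImJ and 0.591 to 178 CPM (median 1.23) in C57BL/6J (-3.68, adjusted p = 0.019), and was -2.74, adjusted p = 0.057 without replicate 2 and -3.63, adjusted p = 0.0505 with cohort as an added term.

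Of 15 markers of Kupffer cells, the resident macrophages, 1 was higher and 11 lower in 129S1/SvImJ (median log2 fold change -0.62), with sums of 479.9 to 657 CPM (median 611) and 592 to 1017 CPM (median 785), which overlapped. The defining marker Clec4f lay at 46.7 to 85.3 CPM (median 68.9) in 129S1/SvImJ and 37.9 to 126 CPM (median 95.7) in C57BL/6J and was not called by limma-voom (-0.35, adjusted p = 0.14). It was called lower by DESeq2 (-0.42, adjusted p = 0.042) and without C57BL/6J replicate 2, its lowest C57BL/6J mouse (-0.51, adjusted p = 0.021). Marco, a scavenger receptor, was at 0.319 to 6.2 CPM (median 1.19) in 129S1/SvImJ and 5.97 to 62.5 CPM (median 11.1) in C57BL/6J (-3.52, adjusted p = 2.1e-06). Lymphocyte markers were nearly all lower. Of 24 T and NK cell markers, 0 were higher and 22 lower in 129S1/SvImJ (median log2 fold change -1.70), with sums of 6.27 to 8.98 CPM (median 6.89) and 12.3 to 32.8 CPM (median 20.1). Of 13 B and plasma cell markers, 0 were higher and 12 lower in 129S1/SvImJ (median log2 fold change -1.48), with sums of 14.6 to 25.2 CPM (median 20.1) and 26.3 to 99.7 CPM (median 44.5). Of the myeloid, T and NK, and B and plasma cell lists, 0 genes were higher by limma-voom, also at an unadjusted p below 0.05, and by edgeR and DESeq2. Without replicate 2 the counts lower were 22 and 12, and without replicates 2, 4 and 6 they were 20 and 8. On WD they were 10 and 3. Cd3e, a chain of the T cell receptor complex, lay at 0.147 to 0.394 CPM (median 0.213) in 129S1/SvImJ and 0.401 to 1.0 CPM (median 0.556) in C57BL/6J (-1.48, adjusted p = 1e-05), and was -0.01, adjusted p = 0.99 on WD. These are low levels, and no listed marker was at 0 in all mice of a strain.

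Fewer endothelial and stellate cell markers were called, 43.8% and 50%, beside 48.9% over all genes. Of 16 endothelial markers, 2 were higher and 5 lower, with sums of 813 to 883 CPM (median 855) and 604 to 925 CPM (median 879). Of 18 stellate cell markers, 2 were higher and 7 lower in 129S1/SvImJ (median log2 fold change -0.08). With cohort as an added term the counts were 1 and 5. Without replicate 2 they were 2 and 4, and without replicates 2, 4 and 6 they were 3 and 2. Of 12 bile duct markers, 0 were higher and 6 lower in 129S1/SvImJ (median log2 fold change -0.99), with 3 lower without those 3 mice and 10 lower by edgeR and by DESeq2 with all mice; 0 were higher by these tools or at an unadjusted p below 0.05 by limma-voom. In the extracellular matrix, which is laid down in fibrosis, 31 of 41 genes were lower and 3 higher (median -0.98), and 17 and 3 without them. Col1a1, of fibrillar collagen, lay at 1.56 to 3.85 CPM (median 2.17) in 129S1/SvImJ and 6.5 to 89.4 CPM (median 8.0) in C57BL/6J (log2 fold change -2.52 with an SE of 0.59, adjusted p = 0.00025), and was -1.67, adjusted p = 0.018 without the 3 mice. The 3 genes higher were Col27a1 (1.76), Col18a1 (0.63) and Fn1 (0.48); hepatocytes are a known source of the last of them, Fn1, at 1705 to 2289.6 CPM (median 2026) in 129S1/SvImJ and 1126 to 1699 CPM (median 1454) in C57BL/6J. The summed level of the list, to which Fn1 and Col18a1 give much, was 3609.6 to 4176 CPM (median 3948) in 129S1/SvImJ and 2851 to 3859 CPM (median 3093) in C57BL/6J, opposite in direction to the count of genes.

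**Figure D3:**
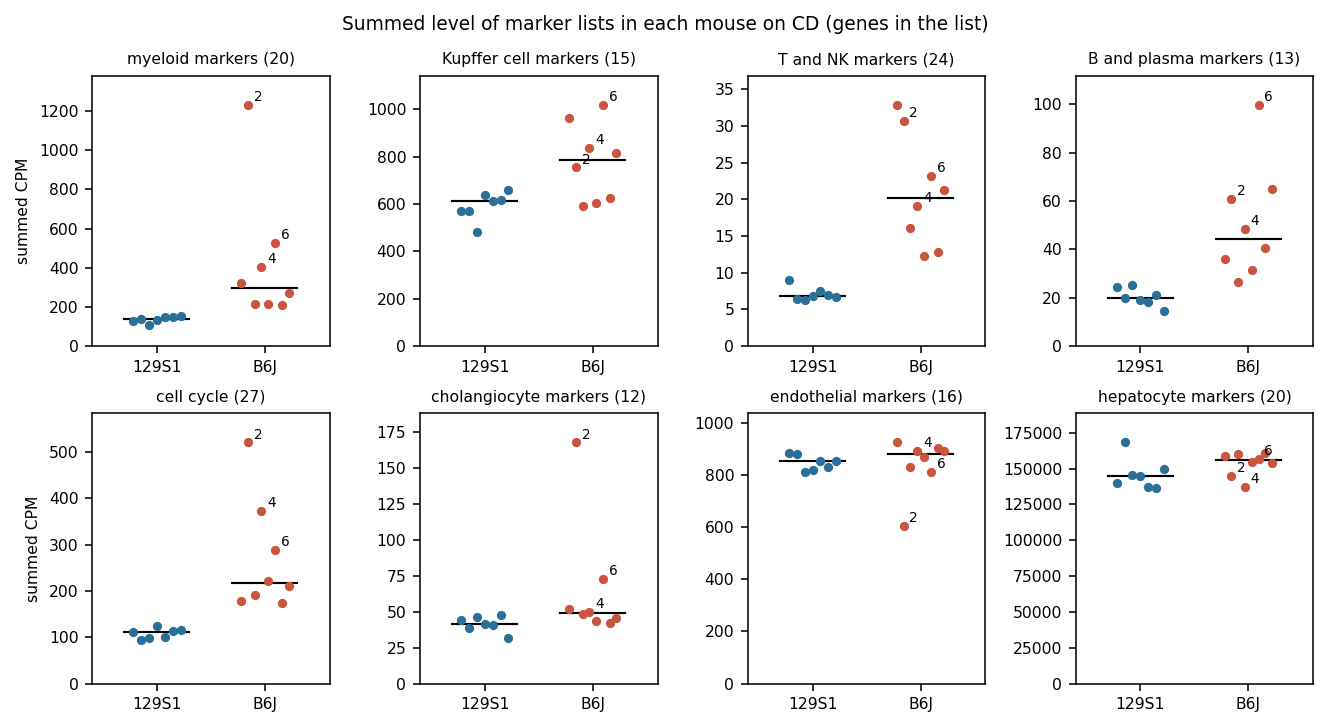
Each point is the summed CPM of a list's genes in 1 mouse on CD (7 of 129S1/SvImJ in blue, 8 of C57BL/6J in red), the bar is the median, axes start at 0, and the numbers mark C57BL/6J replicates 2, 4 and 6. The myeloid, T and NK, B and plasma and cell cycle sums of all C57BL/6J mice were above all 129S1/SvImJ mice, and the Kupffer cell, cholangiocyte, endothelial and hepatocyte sums overlapped.

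Adult liver cells seldom divide, and cell cycle genes were mostly lower in 129S1/SvImJ. Of 27, 2 were higher and 19 lower in 129S1/SvImJ (median log2 fold change -1.24), and their sums were 94.8 to 125 CPM (median 111) and 174 to 521 CPM (median 217), without overlap. Neither of the 2 higher was called with cohort as an added term, where 17 were lower. Ccnd1, cyclin D1, which starts the cycle of hepatocytes, lay at 4.17 to 12.9 CPM (median 5.17) in 129S1/SvImJ and 46.9 to 176 CPM (median 109) in C57BL/6J (log2 fold change -3.92 with an SE of 0.32, adjusted p = 2e-18). The lowest C57BL/6J mouse was more than 3 times the highest 129S1/SvImJ mouse, and the value was -3.53, adjusted p = 2.9e-15 without replicates 2, 4 and 6. On WD it was -1.16, adjusted p = 0.00033. Mcm6, of the replication helicase, lay at 0.378 to 0.824 CPM (median 0.505) in 129S1/SvImJ and 3.93 to 18.9 CPM (median 5.52) in C57BL/6J (log2 fold change -3.58 with an SE of 0.35, adjusted p = 1.2e-14). Mki67, the proliferation marker, lay at 0.274 to 0.911 CPM (median 0.738) in 129S1/SvImJ and 1.59 to 30.6 CPM (median 2.44) in C57BL/6J (-2.72, adjusted p = 3.9e-06), and was -1.69, adjusted p = 0.00044 without those mice. The means of Ccnd1 in the other 5 strains on CD were 5.47 to 24.1 CPM, all below every C57BL/6J mouse.

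The circadian clock is a loop in which ARNTL and NPAS2 or CLOCK bind E-boxes and switch on Per, Cry and output genes, which then hold them back. Of 20 clock genes, 13 were higher and 5 lower in 129S1/SvImJ (median log2 fold change 1.13). Per2 lay at 36.2 to 68.3 CPM (median 46.4) in 129S1/SvImJ and 7.17 to 24 CPM (median 9.44) in C57BL/6J (log2 fold change 2.11 with an SE of 0.22, adjusted p = 8.6e-14), and Per3 at 44.9 to 80.7 CPM (median 58.3) in 129S1/SvImJ and 2.31 to 48.5 CPM (median 10.8) in C57BL/6J (2.67, adjusted p = 2.9e-11). Dbp and Ciart, outputs of the loop, were higher too (2.41 and 3.32, with Dbp at 1.77 without C57BL/6J replicate 2), and Arntl and Npas2, of its positive arm, were lower (-1.68 and -2.76). The cohorts of C57BL/6J differed in these genes. Arntl was at 22.8 to 38.4 CPM in cohort 1 and 2.28 to 10.7 CPM in cohort 2, against 3.11 to 4.18 CPM and 1.88 to 4.05 CPM in the 129S1/SvImJ cohorts, and Dbp was at 0.823 to 5.42 CPM and 16.5 to 104 CPM, against 63.7 to 118 CPM and 68.4 to 91.1 CPM. Both genes overlapped between the strains for cohort 2 and not for cohort 1. Set against C57BL/6J cohort 1, 13 clock genes were higher and 6 lower with either 129S1/SvImJ cohort; against cohort 2, 11 and 12 were higher and 1 and 2 lower. With cohort as an added term 12 were higher and 5 lower. By the study's methods all mice were killed within one window of a few hours in the afternoon. The time of each mouse within it is not given in the sources used here, and its part in these values was not tested. On WD 5 were higher and 1 lower.

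The promoter of Ciart, the clock gene with the largest difference, is shown since it holds 3 matches to the E-box CACGTG, in capitals, where 5 of 17 clock promoters at hand and 1957 of 27025 in all (7.24%) held one or more.
Ciart (chr3:95882179-95882478, minus strand): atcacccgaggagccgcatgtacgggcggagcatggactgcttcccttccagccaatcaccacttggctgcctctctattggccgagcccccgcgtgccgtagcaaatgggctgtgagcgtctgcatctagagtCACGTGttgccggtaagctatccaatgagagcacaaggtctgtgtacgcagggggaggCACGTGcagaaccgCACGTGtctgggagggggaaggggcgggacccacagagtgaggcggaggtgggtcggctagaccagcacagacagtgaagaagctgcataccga

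Liver genes differ between the sexes through the pattern of growth hormone, and all mice here were male. Of 20 male-biased genes, 10 were higher and 4 lower in 129S1/SvImJ (median log2 fold change 0.74), and of 22 female-biased genes, 1 was higher and 8 lower in 129S1/SvImJ (median log2 fold change -0.81), where edgeR and DESeq2 called 2 and 13. By limma-voom 40.9% of the female-biased genes were called, below the 48.9% over all genes. Without C57BL/6J replicate 2 the count of female-biased genes lower was 5 (median -0.44), and without replicates 2, 4 and 6 it was 4. With cohort as an added term 2 female-biased genes were higher and 7 lower. The summed levels went against these counts: that of the male-biased genes had a median of 6535 CPM in 129S1/SvImJ and 11528 CPM in C57BL/6J, and that of the female-biased genes 396 and 195 CPM. Cyp4a12a, a male-biased fatty acid hydroxylase, lay at 525 to 722 CPM (median 675) in 129S1/SvImJ and 5.78 to 169.6 CPM (median 144) in C57BL/6J (log2 fold change 2.82 with an SE of 0.34, adjusted p = 3e-11), and Cyp2d9 at 1181 to 1672 CPM (median 1639.7) in 129S1/SvImJ and 41.2 to 769.8 CPM (median 620.3) in C57BL/6J (1.81, adjusted p = 1.6e-07). Hsd3b5, a male-biased steroid dehydrogenase, lay at 128 to 290.3 CPM (median 232) in 129S1/SvImJ and 0.118 to 187 CPM (median 74.7) in C57BL/6J (3.17, adjusted p = 0.00034). The lowest C57BL/6J value of all 3 was that of replicate 2, and Hsd3b5 was 2.04, adjusted p = 0.0041 without it. Without replicates 2, 4 and 6 Hsd3b5 was 1.03, adjusted p = 0.19, and 4 male-biased genes were higher (median 0.36). Ghr, the growth hormone receptor, lay at 592 to 747 CPM (median 630.3) in 129S1/SvImJ and 269 to 503 CPM (median 408) in C57BL/6J (log2 fold change 0.78 with an SE of 0.09, adjusted p = 5.8e-12), without overlap, and Igfbp3, a carrier of IGF1, at 50.1 to 66.1 CPM (median 62.2) in 129S1/SvImJ and 12.6 to 38.6 CPM (median 16.4) in C57BL/6J (1.74, adjusted p = 2.8e-20). Socs2, which growth hormone induces and which dampens its receptor, was lower, at 6.42 to 28.2 CPM (median 11.7) in 129S1/SvImJ and 19.7 to 120.2 CPM (median 38.5) in C57BL/6J (-1.70, adjusted p = 0.00012), and was 0.43, adjusted p = 0.37 on WD.

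**Figure D4:**
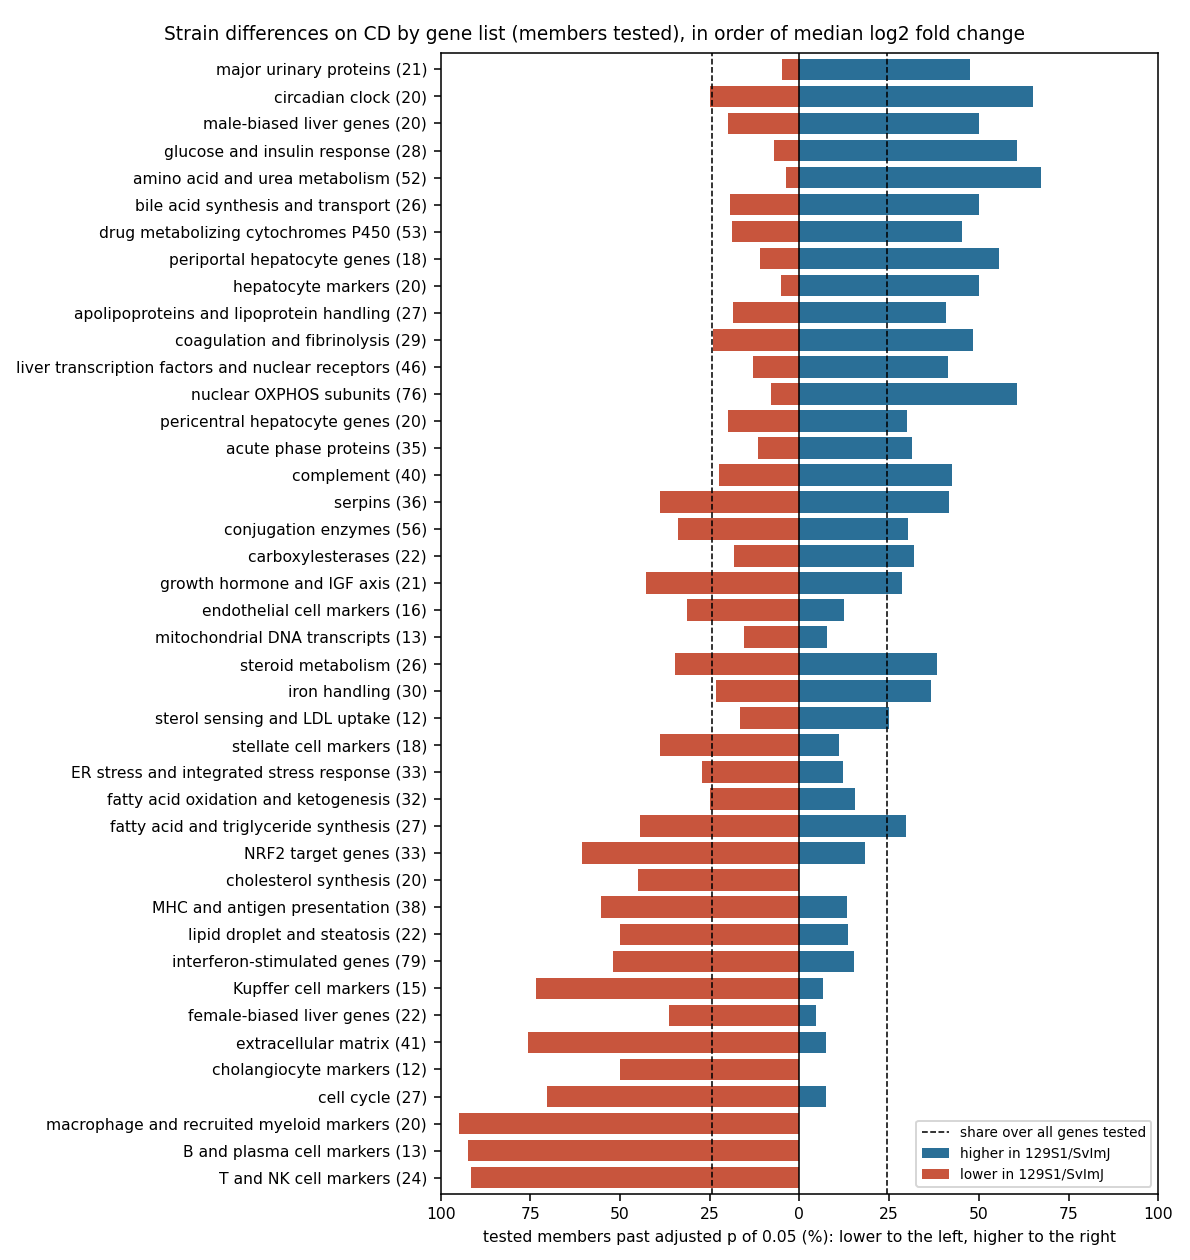
Bars give the share of each list's tested members that were higher (blue, right) or lower (red, left) in 129S1/SvImJ on CD at an adjusted p below 0.05, with the number tested in parentheses and lists in order of their median log2 fold change. Dashed lines mark the shares over all 19110 genes, 24.5% higher and 24.4% lower; the amino acid, clock, glucose and OXPHOS lists reach furthest to the right and the leukocyte lists furthest to the left.

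The strain difference itself changed with the diet, in an interaction test, for 563 of 19110 genes (2.95%). Of these, 466 were called on CD, and for 426 of the 466 the difference was smaller in size on WD. Choosing genes by their call on CD favours larger differences on CD. The count therefore cannot tell whether WD narrowed strain differences. Ccnd1 changed by 2.77, adjusted p = 6.7e-06, Srebf1 by -1.87, adjusted p = 5.4e-05, Per2 by -1.78, adjusted p = 6.8e-05 and Hmgcs1 by 1.36, adjusted p = 0.02 on the log2 scale. Mup17 was 2.06, adjusted p = 6.1e-07 on WD, a change of -5.92, adjusted p = 4.1e-05. Orm3, an orosomucoid, was 4.93, adjusted p = 6.6e-07 on CD and 0.53, adjusted p = 0.20 on WD, with a change of -4.40, adjusted p = 0.0013. Ifit1 turned its sign, from 0.86, adjusted p = 0.0098 to -0.88, adjusted p = 0.015. The CD and WD values share no mice, but the mice of each strain came from the same cohorts on both diets.

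**Figure D5:**
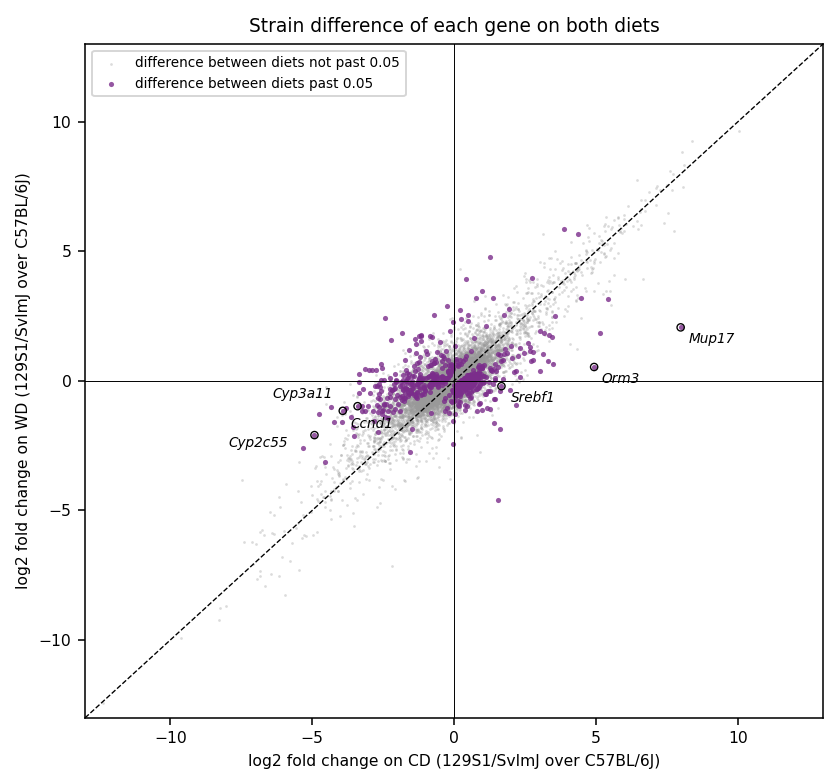
Each point is 1 of 19110 genes, with its log2 fold change of 129S1/SvImJ over C57BL/6J on CD (x axis) and on WD (y axis). The dashed line marks equal differences, purple points are the 563 genes whose difference changed with diet at an adjusted p below 0.05, and 6 named genes are circled, of which Mup17, Orm3 and Srebf1 lie to the right of the line and Ccnd1, Cyp3a11 and Cyp2c55 to its left.

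The other 5 strains on CD gave a scale for these differences, as a description. Of the 9350 called genes, C57BL/6J had the highest or the lowest mean of all 7 strains for 3452 (36.9%) while 129S1/SvImJ did not, the reverse held for 1828 (19.6%), both were at opposite ends for 661, and neither was at an end for 3409 (36.5%). Over all 19110 genes, C57BL/6J alone was at an end for 5096 (26.7%) and 129S1/SvImJ alone for 3043 (15.9%). Ctse averaged 1.93 to 58.8 CPM in the other strains, below every 129S1/SvImJ mouse and above every C57BL/6J mouse. Trim12a averaged 0.00373 to 1.01 CPM there, below every C57BL/6J mouse. Ifi44l averaged 0 to 2.73 CPM, and Hmgcs1 52.7 to 300.2 CPM, a range that held both strains. Cyp3a11 averaged 114 to 4622 CPM, which also held both.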

How the data were processed

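Liver RNA of 93 male mice of 7 strains on 2 diets was sequenced on a BGISEQ-500 instrument, and each mouse is 1 library and 1 replicate. The authors checked reads with FastQC, mapped all strains to the C57BL/6J genome with STAR (2.7.1a in the submitters' processing notes, which name GRCm38 and mm10) and deposited STAR's raw counts of reads per gene, with 4 summary lines for reads not on a gene. Annotation release and strand setting are not given in the sources used here.

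The summary lines were kept apart and gave the shares of reads. In R 4.3.3, genes were kept with filterByExpr of edgeR 4.0.16 at a minimum count of 10, scaled by TMM, and fitted with limma-voom (limma 3.58.1) with 1 mean per group for 14 groups of 5 to 8 mice. Contrasts were 129S1/SvImJ minus C57BL/6J on CD, the same on WD, and their difference. P-values were adjusted by the Benjamini-Hochberg method at 0.05 over all genes, and shares of reads were compared by exact permutation tests, two-sided. Depth was 40020424 to 49648938 reads on genes in the 15 mice compared, and genes of few reads carry more counting error. Alternatives were edgeR's quasi-likelihood test, DESeq2 1.42.0, upper-quartile scaling, no filter, at least 10 counts in every mouse, the 15 mice alone, sample quality weights, RNA integrity as a covariate, cohort within strain, and each of the 15 mice left out in turn. The fits without C57BL/6J replicates 2, 4 and 6, between 4 pairs of cohorts, and with cohort as an added term were chosen after seeing the data. The calling was tested on simulated data.

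The comparison, the 42 gene lists and the tests were chosen with earlier results of these data known. Named genes were the 15 largest protein-coding differences in each direction with at least 2 CPM in the higher strain and no overlap, up to 4 called members of each list with the largest difference and 2 with the highest level, the 10 called genes with the highest level, genes with at most 3 counts in every mouse of one strain and above 2 CPM in every mouse of the other, and Nnt. Not every candidate is described, and some genes are not reported here. Arntl, Cd36, Cd3e, Cd68, Clec4f, Col27a1, Cpt1a, Cyp2d9, Cyp4a12a, Cyp8b1, Dbp, Fasn, Gstm3, H2-Q1, Ifi206, Ifit1, Mki67, Mug1, Mx2, Per2, Serpina1d, Trim30d, Vldlr and Xaf1 and the list members given with a log2 fold change alone were chosen after their values were seen. Symbols and coordinates came from the annotation of GRCm38, and promoters from RefSeq for GRCm38.p6, 1 for each of 27025 symbols.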

Additional observations from a re-analysis of the deposited data

Results flagged for a closer look

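Among 220 pairs of a named gene and a strain on CD, 21 had 1 mouse far from the others of its group (Dixon's criterion on log2 of CPM plus 0.1). Chance alone would give about 1 in 20, or 11 pairs, for normally distributed values. In 16 of them the mouse was C57BL/6J replicate 2. It was the highest of its group for Col1a1 (89.4), Gpnmb (178), Igfbp3 (38.6), Mcm6 (18.9), Plat (13.2) and Srd5a2 (12.4), all in CPM. It was the lowest of its group for C4b (653), Clec4f (37.9), Cpt1a (193), Cyp2d9 (41.2), Cyp4a12a (5.78), Glul (205), Mup20 (209), Mup3 (49.7), Plin2 (331) and Trim30d (4.92). The other mice far from their group were 129S1/SvImJ replicate 2 for Alb at 105394 CPM, C57BL/6J replicate 7 for Fgf21 at 13.9 CPM, C57BL/6J replicate 6 for Ifi202b at 0.073 CPM, 129S1/SvImJ replicate 7 for Scd1 at 3335 CPM and 129S1/SvImJ replicate 1 for Srd5a2 at 0.0246 CPM. The Srd5a2 value was 1 read where the other 129S1/SvImJ mice had 0. Ifi202b was near 0 in all C57BL/6J mice, so both of these rest on very few reads. No explanation was tested.

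For 24 named genes the strain difference changed between the diets by the interaction test of limma-voom (adjusted p below 0.05 over all genes). The change of the log2 fold change, WD minus CD, was positive for Alb (0.43), Ccnd1 (2.77), Cd3e (1.48), Cyp2c55 (2.83), Cyp3a11 (2.42), Gsta1 (3.45), H2-Q1 (1.27), Hmgcs1 (1.36), Mcm6 (1.78), Pparg (1.54), Socs2 (2.13) and Ugt1a9 (1.22). For genes lower in 129S1/SvImJ on CD a positive change is a smaller difference on WD or a change of direction. It was negative for Ciart (-2.55), G6pc (-2.11), H2-Bl (-1.27), Ifit1 (-1.74), Igfbp3 (-0.71), Mup17 (-5.92), Ndufs5 (-0.39), Orm3 (-4.40), Per2 (-1.78), Per3 (-1.50), Sds (-1.66) and Srebf1 (-1.87). The signs on CD are those given with each gene above.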

How the results depend on the processing

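Under the other tests, scalings, filters and sets of mice, the number of genes called between the strains on CD lay between 6231, for cohort 3 of 129S1/SvImJ against cohort 2 of C57BL/6J, and 11548, with no filter (41553 tested). It was 6451 with at least 10 counts in every mouse (12181 genes tested), 6739 with cohort as an added term, 9523 by edgeR, 9603 by DESeq2, 9246 with upper-quartile scaling (3859 higher and 5387 lower), 7509 on the 15 mice alone (15755 tested) and 8741 to 9470 with 1 mouse left out. With upper-quartile scaling the median over all genes was a log2 fold change of -0.06. With at least 10 counts in every mouse, 979 of the calls were at least 2-fold, since low genes were no longer tested. Between the other pairs of cohorts, each with fewer mice, 6826, 7508 and 7107 genes were called for cohorts 3 and 1, 5 and 1, and 5 and 2, and the lowest count lower was 2997, for 3 and 2. Of 2310 pairs of a named gene and another test, scaling, covariate or single mouse left out, 2289 kept direction and side of the threshold, 19 lost the call, 2 gained it and 0 turned direction. Of 660 pairs of a named gene with the cohort pairs, the cohort term or replicates 2, 4 and 6 left out, 601 kept both, 52 lost the call, 4 gained it and 3 turned direction. Calls were lost on the 15 mice alone for Scd1, Gpnmb, Cyp8b1, Mup3, Ifit1, Arntl, Hsd3b5 and Plat, by edgeR and DESeq2 for Cyp8b1 and Mup3 (Mup3 0.49, adjusted p = 0.19 and 0.48, adjusted p = 0.19), without C57BL/6J replicate 2 for Gpnmb, Cyp8b1, Mup3 and G6pc, without 129S1/SvImJ replicate 7 for Scd1, and without 129S1/SvImJ replicate 4 or 5 for Ifit1 (0.67, adjusted p = 0.051 and 0.66, adjusted p = 0.054). Clec4f was called by DESeq2 (-0.42, adjusted p = 0.042) and without C57BL/6J replicate 2 (-0.51, adjusted p = 0.021). Direction turned for Mup3 without C57BL/6J replicates 2, 4 and 6 (log2 fold change -0.024), for Cpt1a between cohorts 5 and 1 (0.61, adjusted p = 0.035) and for Ifit1 between cohorts 3 and 2 (-0.63); the cause was not tested. Without replicates 2, 4 and 6 the call was also lost for Gpnmb, Cyp8b1, G6pc, Hsd3b5 and Plat. With the cohort term, 3490 genes were called on both diets in the same direction. The diet test called 709 genes by edgeR, 575 with upper-quartile scaling and 784 with the cohort term. No paired analysis was possible because replicate numbers follow accession order and no label links a mouse of one strain with a mouse of the other. Depth limits genes of a few reads, the strains share no cohort, and the cohort term takes a cohort's shift to be the same in every strain.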

Other observations

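Hepatocytes divide their work along the lobule, with periportal cells near the incoming blood and pericentral cells near the central vein. Of 18 periportal genes, 10 were higher and 2 lower in 129S1/SvImJ (median log2 fold change 0.34), and of 20 pericentral genes, 6 were higher and 4 lower in 129S1/SvImJ (median log2 fold change 0.15). Without C57BL/6J replicate 2 the counts of pericentral genes were 6 higher and 6 lower, and the median turned to -0.04. Glul, the glutamine synthetase of the innermost pericentral cells, was not called (0.19, adjusted p = 0.44 by limma-voom). Of 46 liver transcription factors and nuclear receptors, 19 were higher and 6 lower in 129S1/SvImJ (median log2 fold change 0.20), and Hnf4a, a factor of hepatocyte identity, was not called (0.05, adjusted p = 0.76). Of 27 apolipoproteins and genes of lipoprotein handling, 11 were higher and 5 lower in 129S1/SvImJ (median log2 fold change 0.22), with 2 lower with cohort as an added term. Of 22 carboxylesterases, 7 were higher and 4 lower in 129S1/SvImJ (median log2 fold change 0.02), and the median was -0.01 without C57BL/6J replicate 2.

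Of 26 genes of steroid metabolism, 10 were higher and 9 lower, with 6 higher without C57BL/6J replicates 2, 4 and 6. Of 30 genes of iron handling, 11 were higher and 7 lower. Of 21 genes of the growth hormone axis, 6 were higher and 9 lower, with 3 lower without C57BL/6J replicates 2, 4 and 6 and 2 with cohort as an added term. Of 12 genes of sterol sensing and LDL uptake, 3 were higher and 2 lower, with 1 higher and 1 lower without replicates 2, 4 and 6. Of 33 genes of the endoplasmic reticulum stress response, 4 were higher and 9 lower. Of the latter list, 2 were higher with cohort as an added term and 6 lower without replicates 2, 4 and 6. For sterol sensing 41.7% and for the stress response 39.4% were called, below the 48.9% over all genes.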
